A study of Danio rerio with 6 samples.

Results

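Integrin subunits are the alpha and beta chains of the receptors that fix cells to the extracellular matrix, and their genes were taken as the rows whose gene name starts with itga or itgb in lower case followed by a further letter or digit, with *itgb1bp1* and *itgbl1*, which encode no integrin subunit, left out by the rule. There were 31 such genes, 19 for alpha and 12 for beta subunits, among the 29978 genes listed. A further 5 rows with integrin-like names in capitals were not members under this rule. Of the 31 genes, 29 passed the filter on low counts and were tested, and *itga2.1* and *itgam* did not pass.

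Each integrin is a pair of an alpha and a beta subunit, encoded by separate genes and set in the cell membrane. The pair decides which matrix protein is bound: some pairs take fibronectin and other proteins that carry the RGD tripeptide, some take laminins or collagens, and a few are kept by blood cells for contact with other cells. Inside the cell most beta tails recruit talin, kindlin and other adaptors that link the receptor to actin. In the developing heart integrins attach endocardial and myocardial cells to the matrix between them, the cardiac jelly, into which the cells of the later valves move. The roles given here for single subunits are those known from mammals unless stated otherwise.

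RNA was measured in hearts dissected from zebrafish embryos at 56 and at 48 hours post fertilization (hpf), with 3 pools of hearts at 56 hpf and 3 at 48 hpf. The labels name no treatment at either stage, while the study's methods say that all animals were given PTU against pigment formation. The embryos are given as the AB line in the sample labels and as carriers of the *myl7:EGFP* transgene, which marks the myocardium, in the study's methods. The comparison of 56 with 48 hpf asks how transcript levels in the heart differ across the first steps of valve formation, and each library is a whole dissected heart pool, so a value is a mixture over all its cell types. Nothing in the labels says whether the pools of a stage came from separate clutches, so the p-values do not reach beyond these pools. Those of the main fit rest on the spread left after differences between replicate numbers are removed.

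Values are normalized counts, reads divided by a size factor for the depth of the library, and are given in the order replicate 1, 2 and 3 at each stage. Reads on genes numbered 19610492 to 25427381 per library at 56 hpf and 14369087 to 26942838 at 48 hpf. At this depth 3 reads, the floor of detection used here, correspond to 2.13 to 4.0 normalized counts, which covers counting error only. A fold change is the difference of log2(normalized count + 1), 56 minus 48 hpf, from a limma fit across all genes with the replicate number as a block, and adjusted p-values are by Benjamini-Hochberg over the 20805 genes tested, with a threshold of 0.05. An exact two-sided permutation test of 3 pools against 3 cannot give a p below 0.1, the value of every gene whose 2 stages do not overlap. All 15 myocardial marker genes were detected in the pools, and all 13 of endocardium and endothelium.

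The pools also differed in tissues beside the heart wall. The summed normalized counts of 17 epidermal markers, keratins and junction genes of skin, were 463658, 770967 and 727563 in the 56 hpf pools, against 428235, 335109 and 159461 in the 48 hpf pools. At 48 hpf replicate 1 thus had the most epidermal counts and replicate 3 the fewest, and all 3 of the 56 hpf pools lay above all 3 of the 48 hpf pools. *krt4* had the most in every pool, with 330303, 530628 and 476041 at 56 hpf, against 303484, 256018 and 114852 at 48 hpf. The sum thus mostly follows *krt4*, whose adjusted p was 0.51 in limma. Of the 17 markers 8 were higher in every 56 hpf pool than in any 48 hpf pool, as 13.1% of all genes tested were. The other 9 overlapped. The 15 myocardial markers had a median log2 fold change of -0.69, with none passing the adjusted threshold. Of these 2 were lower in every 56 hpf pool than in any 48 hpf pool, as 11.3% of all genes tested were, and 13 overlapped. The myocardial markers summed to 519625 to 610388 in the 56 hpf pools. Replicate 1 at 48 hpf, with 559571, lay within that range, and the other two 48 hpf pools lay above it. The 13 markers of endocardium and endothelium, the lining from which valve cells come, all had negative fold changes, with a median of -0.47 and 1 falling, *flt1*. They summed to 23726, 19909.9 and 21244 in the 56 hpf pools, against 21988, 30332 and 40079.5 in the 48 hpf pools, with replicate 1 again the lowest at 48 hpf. Markers of skeletal muscle had a median log2 fold change of 3.1 with 14 of 25 rising, and those of red blood cells one of -1.70 with 5 of 11 falling. The 14 markers of liver and yolk summed to 105661, 19622 and 92429 in the 56 hpf pools, against 49196, 7611 and 22563 in the 48 hpf pools. Replicate 2 was thus the lowest at both stages, though *rbp4* did not keep that order, and none of the 12 tested rose or fell. Rising or falling here means passing the adjusted threshold, as 1.08% of all genes tested did in either direction. In bulk RNA of this kind, fewer cells of a type and less RNA per cell cannot be told apart.

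None of the 29 integrin genes tested passed the adjusted threshold, where 1.08% of all genes tested did (limma, Benjamini-Hochberg). At an unadjusted p under 0.05 in the same fit, 10 integrin genes were higher at 56 hpf and 6 lower, against 11.1% and 7.42% of all genes tested. The 56 hpf pools all lay above the 48 hpf pools for 9 integrin genes, where 13.1% of all genes tested did so, and all lay below them for 4, where 11.3% did so. The remaining 16 genes overlapped between stages. Over the 29 genes the median log2 fold change was 0.094, with 16 positive and 13 negative, beside a median of -0.011 over all genes. On the scale of the deposited size factors these medians were 0.22 and 0.11. Fold changes thus ran in both directions within the family.

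The call count depended on the test. When whole reads were recovered and tested by edgeR's likelihood ratio method, 6 integrin genes rose (*itga10*, *itga2.2*, *itga3a*, *itgb1b.2*, *itgb3a* and *itgb4*) and 1, *itga2b*, fell at an adjusted p under 0.05, where 5.79% of all genes tested rose and 2.58% fell. That test counts far more genes over the whole table than limma, 1741 against 225, and edgeR's quasi-likelihood test, with the same block, called 156 genes and 0 integrin genes. Without the block limma called *itga10* and *itgb3a*, where it called 2.69% of all genes. Leaving out replicate 1 at both stages gave 11 integrin genes in limma, where that fit called 10.9% of all genes, and leaving out replicate 2 gave 0, where it called 0.255%.

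**Figure D1:**
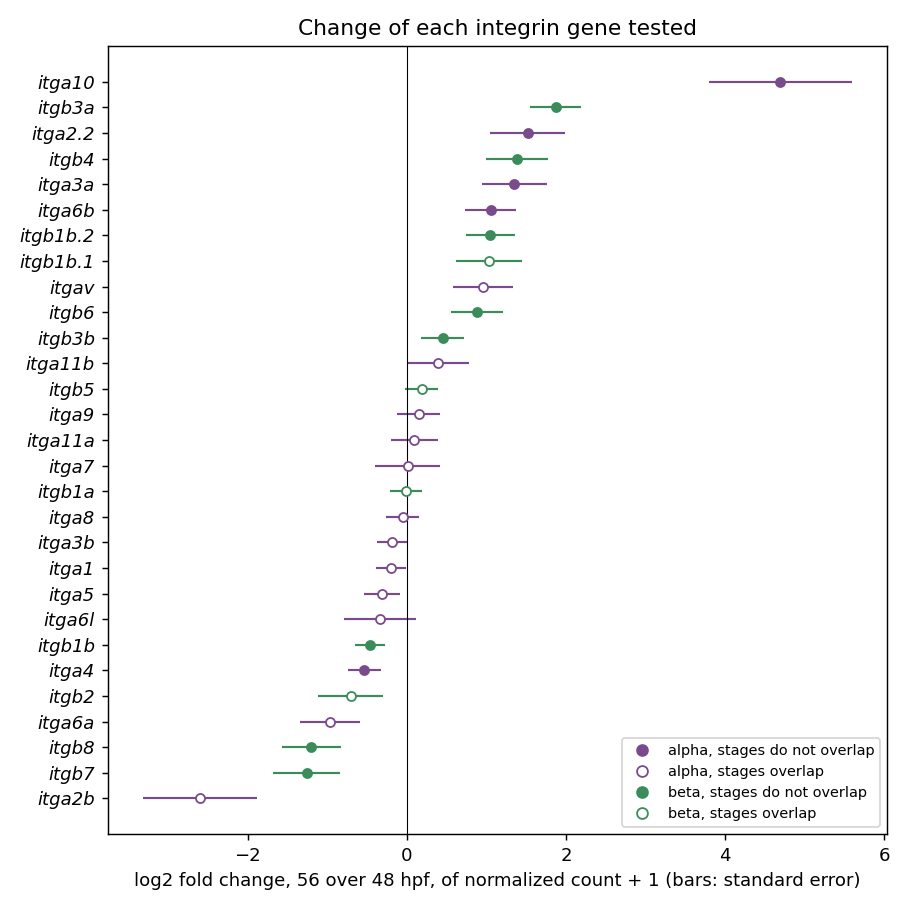
The log2 fold change of each of the 29 integrin genes tested (56 over 48 hpf, horizontal axis, bars are standard errors from limma), ordered by size, alpha genes in purple and beta genes in green, filled where the stages do not overlap. Most genes lie between -1 and 1, with *itga10* at 4.69 and *itga2b* at -2.59 at the ends.

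**Figure D2:**
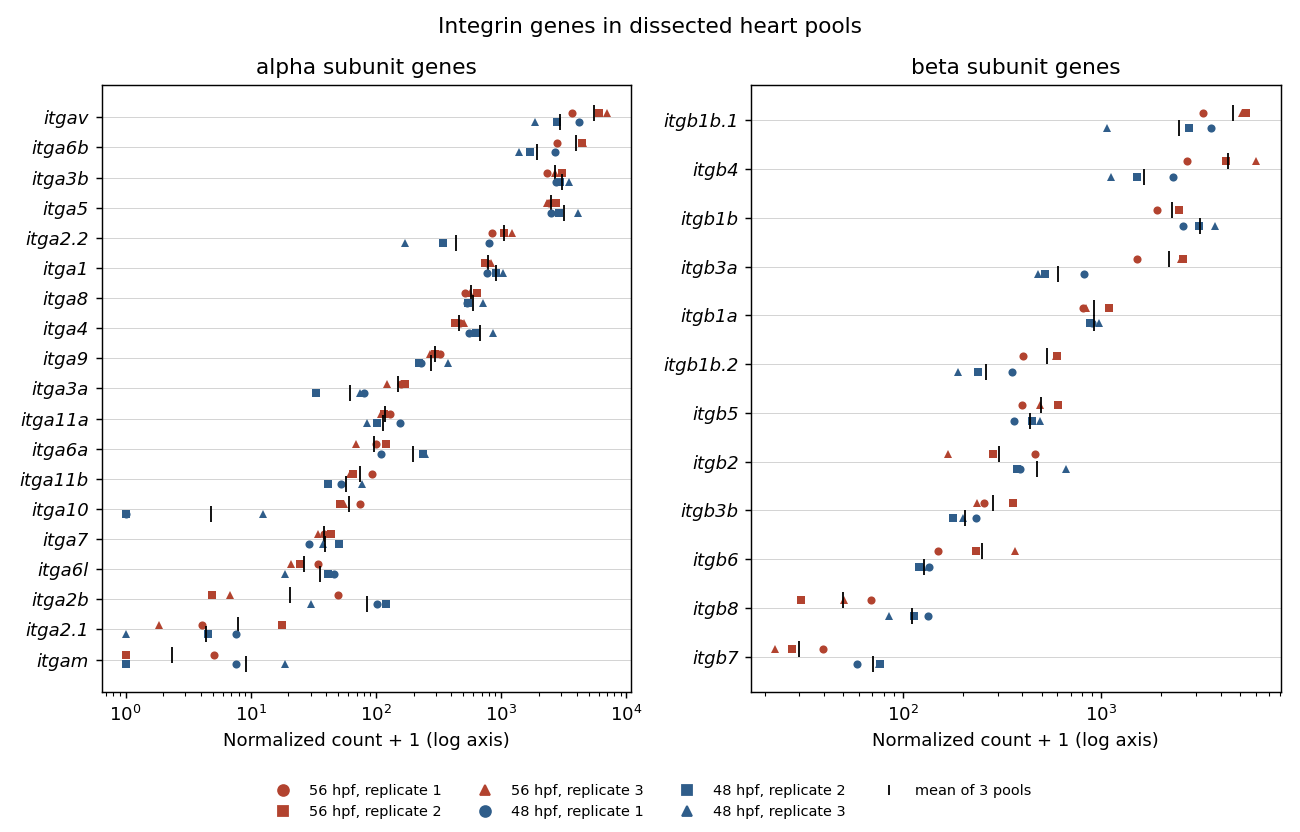
The normalized count + 1 of all 31 integrin genes in each pool (log axis), 56 hpf in red above 48 hpf in blue, with the replicate by symbol and the mean of 3 pools as a bar. Counts span from 0 in *itgam* and *itga10* pools to 6979 for *itgav* in replicate 3 at 56 hpf.

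The alpha genes for receptors of fibronectin and of other RGD or cell-surface ligands were 5, and 4 of them overlapped between stages. The other was lower in every 56 hpf pool than in any 48 hpf pool, as 11.3% of all genes tested were. None was higher in every 56 hpf pool, as 13.1% of all genes tested were. *itga5* encodes the alpha subunit of the classical fibronectin receptor. It had 2427, 2744 and 2335 normalized counts in the 56 hpf pools, against 2483, 2906 and 4085 in the 48 hpf pools. Replicate 2 at 56 hpf lay above replicate 1 at 48 hpf, and otherwise the 48 hpf pools were the higher ones. Its log2 fold change was -0.31 (SE 0.23, adjusted p = 0.508). *itgav*, the alphaV subunit that binds vitronectin and fibronectin with several beta partners, had 3693, 6009.8 and 6979 normalized counts in the 56 hpf pools, against 4154, 2773 and 1847 in the 48 hpf pools. Replicate 1 was the lowest of the 56 hpf pools and the highest of the 48 hpf pools, and these 2 pools were the only ones to overlap. The fit gave 0.95 (SE 0.38, adjusted p = 0.247).

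*itga4*, which pairs with beta1 or beta7 and binds fibronectin and VCAM-1, was the member of this group whose stages did not overlap. It had 467, 425 and 499 normalized counts in the 56 hpf pools, against 551, 632 and 863 in the 48 hpf pools. Every 56 hpf pool lay below every 48 hpf pool, with a log2 fold change of -0.53 (SE 0.21, adjusted p = 0.24). *itga8*, whose product binds nephronectin, had 518, 639 and 564 normalized counts in the 56 hpf pools, against 532, 547 and 716 in the 48 hpf pools, and a fold change near 0 (-0.053, SE 0.21) whose sign turned on the deposited scale (0.075). *itga9*, whose product binds tenascin-C, osteopontin and VCAM-1, averaged 295 ± 27.8 at 56 hpf and 274 ± 85.4 normalized counts at 48 hpf (SD, n = 3 each). Both of these genes overlapped widely between stages.

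The beta1 subunit pairs with most alpha subunits, and zebrafish carry several genes for it. In the RefSeq annotation of the GRCz12tu assembly, a later assembly than that of the counts, *itgb1b*, *itgb1b.2* and *itgb1b.1* stand next to each other in that order between *nrp1b* and *epc1b*. *itgb1a* is apart from them and lies beside *nrp1a*. By the study's methods only uniquely aligned reads were counted. Reads that fit more than 1 of these related genes would then be left out, so their levels relative to each other are uncertain.

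The fold changes of the 3 neighbouring genes did not share a sign. *itgb1b* had 1905, 2465 and 2464 normalized counts in the 56 hpf pools, against 2585, 3121 and 3761 in the 48 hpf pools. All 56 hpf pools lay below all 48 hpf pools, with a log2 fold change of -0.46 (SE 0.19, adjusted p = 0.249). *itgb1b.2* had 404, 597 and 589 normalized counts in the 56 hpf pools, against 355, 236 and 189 in the 48 hpf pools. Here all 56 hpf pools lay above all 48 hpf pools, with a fold change of 1.05 (SE 0.31, adjusted p = 0.149). *itgb1b.1* had 3265, 5395 and 5125 normalized counts in the 56 hpf pools, against 3562, 2780.0 and 1062 in the 48 hpf pools. Replicate 3 at 48 hpf was far below the other 5 pools, replicate 1 at 48 hpf lay above replicate 1 at 56 hpf, and the fit gave 1.03 (SE 0.42, adjusted p = 0.253). *itgb1a* had 808, 1095 and 834 normalized counts in the 56 hpf pools, against 895, 875 and 974 in the 48 hpf pools, and overlapped widely, with a fold change of -0.016 (SE 0.20) that was 0.11 on the deposited scale.

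A ratio of 2 genes within 1 library does not depend on the size factor. The reads of *itgb1b.1* over those of *itgb1b* gave 1.71, 2.19 and 2.08 in the 56 hpf pools, against 1.38, 0.891 and 0.282 in the 48 hpf pools. The ratio was above 1 in every 56 hpf pool and in replicate 1 at 48 hpf, and below 1 in the other 2 pools at 48 hpf. For *itgb1b.2* over *itgb1b* the ratios were 0.212, 0.242 and 0.239 in the 56 hpf pools, against 0.137, 0.0758 and 0.0503 in the 48 hpf pools. For *itgb1a* over *itgb1b* they were 0.424, 0.444 and 0.338 in the 56 hpf pools, against 0.346, 0.28 and 0.259 in the 48 hpf pools, and these overlapped. Of the 7 ratios of related genes compared, 5 had every 56 hpf pool above every 48 hpf pool, each with an exact permutation p of 0.1 and an adjusted p of 0.14, which is the smallest this design and number of pairs could give for 5 such ratios. The direction depends on which gene is on top, which was set pair by pair. Ratios over *itgb1b* share that gene and are not separate results. How many other gene pairs differ in this way was not counted.

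**Figure D3:**
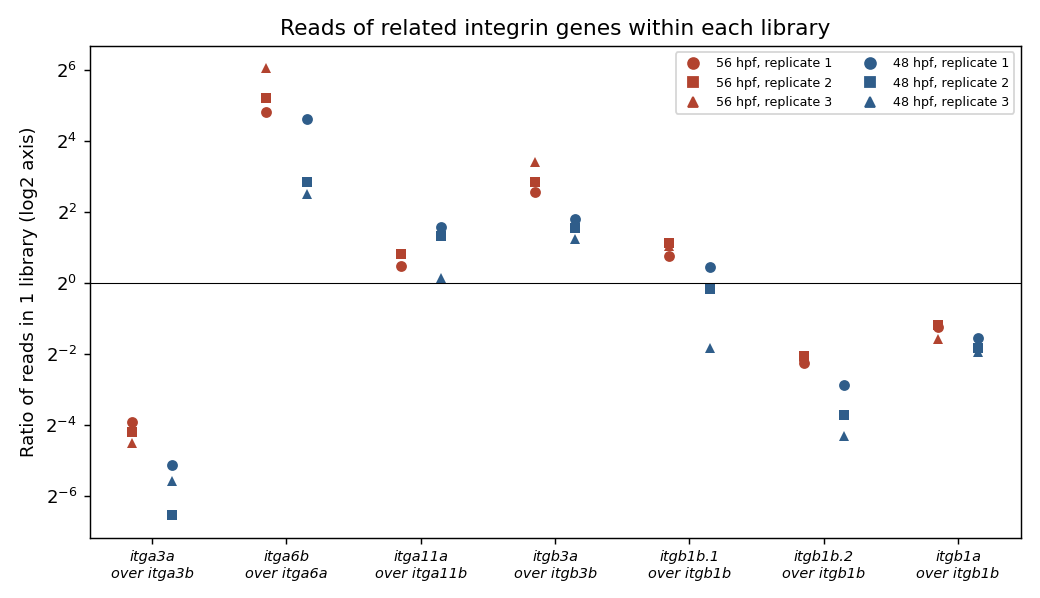
Reads of one integrin gene over those of a related gene in the same library (log2 axis), for 7 pairs, with 56 hpf in red left of 48 hpf in blue and the replicate by symbol. In 5 pairs the 56 hpf pools sit above the 48 hpf pools, while *itga11a* over *itga11b* and *itgb1a* over *itgb1b* overlap.

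Beside beta1, the beta partners of alphaV were 5 genes. Of these 3 were higher in each 56 hpf pool than in each 48 hpf pool, as 13.1% of all genes were, and 1 was lower, as 11.3% were. *itgb3a*, a copy of the beta3 gene whose product forms the vitronectin receptor with alphaV and the platelet fibrinogen receptor with alphaIIb, had 1518, 2578 and 2523 normalized counts in the 56 hpf pools, against 815, 518 and 476 in the 48 hpf pools. The lowest 56 hpf pool, replicate 1, lay well above the highest 48 hpf pool, also replicate 1. The means were 2206 ± 597 at 56 hpf and 603 ± 184 normalized counts at 48 hpf (SD, n = 3 each). The fold change of 1.87 (SE 0.32, adjusted p = 0.0571) had the smallest adjusted p of the family, and it ranged over 1.60 to 2.36 in the 20 alternatives run, 11 of which called it, with an adjusted p between 4.52e-06 and 0.303. Its adjusted p was 0.0146 in limma without the block and 4.9e-05 by edgeR's likelihood ratio test.

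*itgb3b*, the other copy, had 254, 359 and 235 normalized counts in the 56 hpf pools, against 233, 178 and 201 in the 48 hpf pools. The stages did not overlap but lay close, with a fold change of 0.45 (SE 0.27, adjusted p = 0.412). The reads of *itgb3a* over those of *itgb3b* gave 5.98, 7.19 and 10.8 in the 56 hpf pools, against 3.49, 2.92 and 2.37 in the 48 hpf pools. So *itgb3a* had more reads than *itgb3b* in all 6 libraries, and by the larger factor in each library at 56 hpf.

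*itgb6*, whose product is found in epithelia with alphaV, had 149, 232 and 367 normalized counts in the 56 hpf pools, against 135, 119 and 126 in the 48 hpf pools. The 56 hpf pools spread widely, with replicate 3 the highest, and all lay above the 3 pools at 48 hpf, which were close together. The fold change was 0.88 (SE 0.33, adjusted p = 0.223). *itgb8*, whose product pairs with alphaV alone and activates latent TGF-beta, had the opposite sign, with 68, 29.6 and 49.1 normalized counts in the 56 hpf pools, against 132, 112 and 83.8 in the 48 hpf pools. All of its 56 hpf pools lay below all of its 48 hpf pools, with a fold change of -1.20 (SE 0.37, adjusted p = 0.162). *itgb5*, a further partner of alphaV, averaged 497 ± 105 at 56 hpf and 433 ± 66.2 normalized counts at 48 hpf (SD, n = 3 each) and overlapped between stages.

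The laminin receptor genes were 7, the alpha3, alpha6 and alpha7 genes and *itgb4*. *itgb4* encodes beta4, which pairs with alpha6 in the hemidesmosomes that fix basal epidermal cells to their basement membrane. It had 2699, 4232 and 6059 normalized counts in the 56 hpf pools, against 2309, 1505 and 1115 in the 48 hpf pools. All 56 hpf pools lay above all 48 hpf pools, but replicate 1 at 48 hpf was nearer to replicate 1 at 56 hpf than to the other 48 hpf pools. The fold change was 1.39 (SE 0.39, adjusted p = 0.136). *itga6b*, a copy of the gene for its partner alpha6, had 2816, 4432 and 4525 normalized counts in the 56 hpf pools, against 2679, 1699 and 1393 in the 48 hpf pools. Its pools took the same order at 48 hpf, with no overlap between stages and a fold change of 1.05 (SE 0.32, adjusted p = 0.162).

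The other alpha6 copy had a negative fold change. *itga6a* had 99.4, 120.2 and 68.2 normalized counts in the 56 hpf pools, against 108, 235 and 244 in the 48 hpf pools. Replicate 1 at 48 hpf lay among the 56 hpf pools, below replicate 2 at 56 hpf, while the other 48 hpf pools were above all of them, and the fit gave -0.97 (SE 0.37, adjusted p = 0.239). In reads, *itga6b* over *itga6a* came to 28.3, 36.9 and 66.3 in the 56 hpf pools, against 24.8, 7.23 and 5.71 in the 48 hpf pools. The ratio was higher in each 56 hpf pool, and replicate 1 at 48 hpf was again close to the 56 hpf pools. *itga6l* was low, with 33.5, 23.6 and 20 normalized counts in the 56 hpf pools, against 45.3, 40.5 and 17.8 in the 48 hpf pools, and overlapped.

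*itga3a*, one copy of the gene for alpha3, a receptor of the laminins under epithelia, had 157, 168 and 121 normalized counts in the 56 hpf pools, against 78.7, 32 and 73.6 in the 48 hpf pools. No 48 hpf pool reached the lowest 56 hpf pool, and the fold change was 1.35 (SE 0.40, adjusted p = 0.151). *itga3b*, the other copy, had 2342, 3055 and 2704 normalized counts in the 56 hpf pools, against 2752, 2969 and 3475 in the 48 hpf pools. Its stages overlapped and the fold change was -0.18 with an SE of 0.19. The reads of *itga3a* over those of *itga3b* gave 0.0672, 0.0551 and 0.0446 in the 56 hpf pools, against 0.0286, 0.0108 and 0.0212 in the 48 hpf pools. *itga3b* thus held nearly all reads of the pair at both stages. *itga7*, whose product is the laminin receptor of muscle, was low at 37.7 ± 4.54 at 56 hpf and 38.2 ± 10.9 normalized counts at 48 hpf (SD, n = 3 each) and differed by 0.014 on the log2 scale.

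Collagen receptors of vertebrates are pairs of beta1 with alpha1, alpha2, alpha10 or alpha11, and 6 alpha genes fell in this group. *itga10*, whose product is a collagen receptor of cartilage, had reads of 73, 51 and 66 in the 56 hpf pools, against 0, 0 and 9 in the 48 hpf pools. These were 74.1, 50.2 and 54.9 normalized counts in the 56 hpf pools, against 0, 0 and 11.4 in the 48 hpf pools. No read was counted in 2 of the 48 hpf pools, and every 56 hpf pool was above the floor and above the other 48 hpf pool. Its fold change was 4.69 (SE 0.90, adjusted p = 0.0701), the largest of the family. The size of a fold change against so few reads rests on the pseudocount and on the 9 reads of replicate 3 at 48 hpf. It ranged over 2.42 to 5.97 in the 19 alternatives that could test the gene. Of these 7 called it, with an adjusted p between 5.54e-05 and 0.313 over the alternatives.

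*itga2.2*, one of the alpha2 genes, had 850.4, 1052 and 1227 normalized counts in the 56 hpf pools, against 797, 342 and 169 in the 48 hpf pools. The stages did not overlap, though replicate 1 at 48 hpf came close to replicate 1 at 56 hpf and replicate 3 at 48 hpf was the lowest by far. The fold change was 1.52 (SE 0.47, adjusted p = 0.162). *itga2.1* did not pass the filter, with reads of 3, 17 and 1 in the 56 hpf pools, against 5, 5 and 0 in the 48 hpf pools, and only replicate 2 at 56 hpf was clearly above the floor. By the study's methods, any reads that fit both genes equally would be left out of the counts.

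*itga1* had 771, 749 and 826 normalized counts in the 56 hpf pools, against 771, 909 and 1025 in the 48 hpf pools. It overlapped between stages, with a fold change of -0.20 (SE 0.19). The 2 genes for alpha11, known from fibroblasts, overlapped as well. *itga11a* had 129, 114 and 108 normalized counts in the 56 hpf pools, against 155, 101 and 83.8 in the 48 hpf pools. *itga11b* had 92.3, 65 and 61.6 normalized counts in the 56 hpf pools, against 52, 40.5 and 76.2 in the 48 hpf pools, and the reads of *itga11a* over those of *itga11b* gave 1.4, 1.76 and 1.76 in the 56 hpf pools, against 2.97, 2.49 and 1.1 in the 48 hpf pools.

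Subunits kept by blood cells made up a last group of 4, and the 3 that were tested had negative fold changes. *itga2b* encodes alphaIIb, the defining integrin of platelets and of their zebrafish counterparts, thrombocytes. It had 48.7, 3.94 and 5.83 normalized counts in the 56 hpf pools, against 100, 120.0 and 29.2 in the 48 hpf pools. Replicates 2 and 3 at 56 hpf were near the floor, while replicate 1 at 56 hpf lay above replicate 3 at 48 hpf, so the stages overlapped. The fold change was -2.59 (SE 0.72, adjusted p = 0.133), with an adjusted p of 0.0177 by edgeR's likelihood ratio test.

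*itgb7*, whose product serves lymphocytes, had 38.6, 26.6 and 21.6 normalized counts in the 56 hpf pools, against 57.3, 75.3 and 74.9 in the 48 hpf pools. Every 56 hpf pool was below every 48 hpf pool, with a fold change of -1.26 (SE 0.42, adjusted p = 0.186). *itgb2*, the beta subunit shared by the leukocyte integrins, had 464, 283 and 167 normalized counts in the 56 hpf pools, against 389, 374 and 659 in the 48 hpf pools. Replicate 1 at 56 hpf lay among the 48 hpf pools, and the fit gave -0.71 (SE 0.41, adjusted p = 0.401). *itgam*, the alpha subunit of macrophages and neutrophils that pairs with beta2, was not tested, with reads of 4, 0 and 0 in the 56 hpf pools, against 5, 0 and 14 in the 48 hpf pools.

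Markers of the cells known for these subunits were read beside them. The summed counts of 15 leukocyte markers were 4556, 5860.1 and 4709 in the 56 hpf pools, against 10148, 15376 and 17445 in the 48 hpf pools, with all 56 hpf pools below all 48 hpf pools, none of the markers at 0, a median log2 fold change of -0.69 and 2 falling, the granulocyte genes *lyz* and *mpx*. *lyz* had the most counts in every pool, with 1723, 2767 and 1877 at 56 hpf, against 5489, 10697.5 and 11277 at 48 hpf. Of the 15 markers 10 were lower in every 56 hpf pool than in any 48 hpf pool, as 11.3% of all genes tested were. Positive fold changes were found for 5, among them *csf1ra* and *mpeg1* of macrophages. Of 5 thrombocyte markers 4 had negative fold changes, with a median of -0.65, 0 called and none at 0, and the positive one was *thbs1b*, also a matrix gene. Their sums were 4717 to 7797 at 56 hpf and 3262 to 4893 at 48 hpf, and *thbs1b* had the most counts in every pool. Among 17 epidermal markers all 17 had positive fold changes, with a median of 1.3, 2 rising (*col17a1a* and *col17a1b*, collagen genes of hemidesmosomes) and none at 0. At 48 hpf 11 of the 31 integrin genes had the order of the epidermal sums, with replicate 1 the highest and replicate 3 the lowest. For 7 of them, *itgb4*, *itga6b*, *itga2.2*, *itgb3a*, *itgav*, *itgb1b.1* and *itgb1b.2*, replicate 1 was also the lowest pool at 56 hpf, as it was for the epidermal sum. For *itgb8*, *itga11a* and *itga6l* replicate 1 was the highest pool at 56 hpf, opposite to that sum, and for *itga2.1* it lay between the others. How many of all genes had these orders was not counted. Single epidermal markers such as *col17a1b* and *epcam* did not keep the 48 hpf order of the sum. Of 15 cartilage markers tested 6 rose, where 1.08% of all genes tested were called, and 5 had negative fold changes, 2 of them at an unadjusted p under 0.05. None of the markers was at 0 in every pool, and all 16 listed summed to 25006 to 28646 at 56 hpf and 15290.3 to 27481 at 48 hpf. The part of these other cell types in the integrin differences was not tested.

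**Figure D4:**
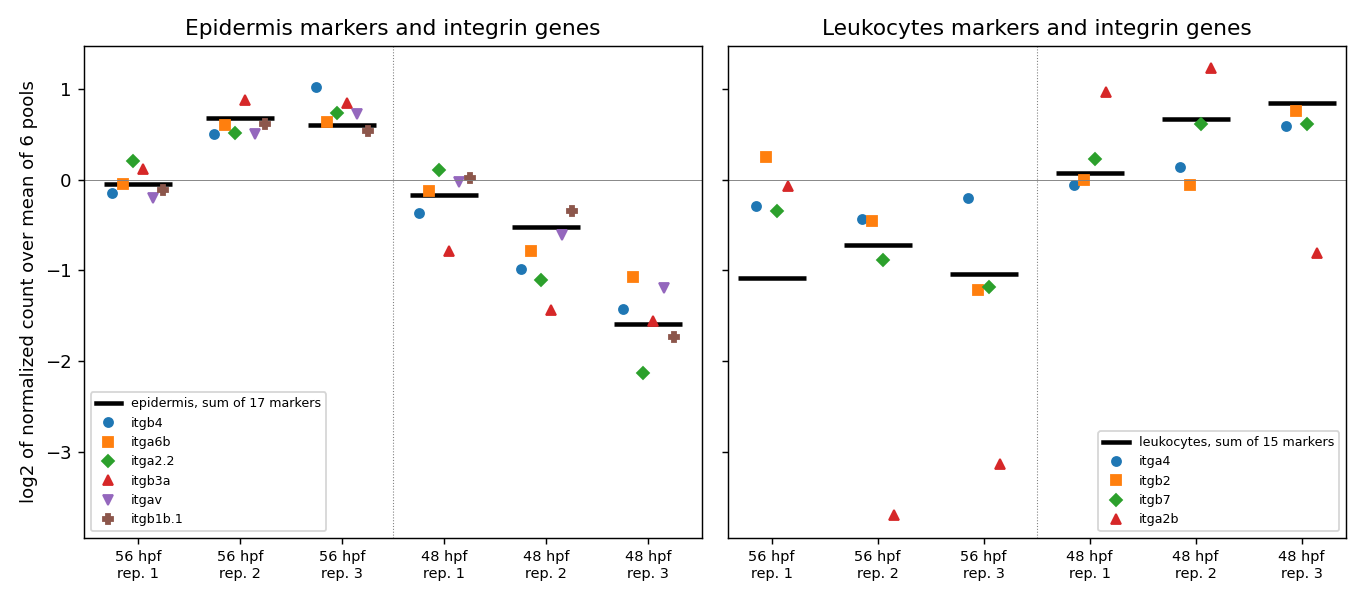
The log2 of the normalized count over its mean of 6 pools, for each pool, 56 hpf left of 48 hpf: black bars are the summed markers of epidermis (left panel) and leukocytes (right panel), symbols are 10 integrin genes chosen after their values were seen. The 48 hpf epidermal bars step down over the replicates with the 6 integrin genes of the panel, all taken from genes with that order. *itgb8*, *itga11a*, *itga6l* and *itga2.1* had that order too, but replicate 1 was not their lowest 56 hpf pool, and they are not drawn. The leukocyte bars of the 56 hpf pools all lie below those of the 48 hpf pools. In every pool *krt4* had the most counts of the epidermal markers and *lyz* the most of the leukocyte markers.

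Summed over the family, alpha subunit genes had 14886, 20006 and 20400.0 in the 56 hpf pools, against 15527, 13619 and 14536 in the 48 hpf pools. The stages overlapped through replicate 1, which was the lowest 56 hpf pool and the highest 48 hpf pool. Beta subunit genes had 11967, 17898 and 18923 in the 56 hpf pools, against 11829, 10341 and 9212 in the 48 hpf pools. Replicate 1 at 56 hpf was just above replicate 1 at 48 hpf, and the other 56 hpf pools were well above all 48 hpf pools.

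The make-up of these sums differed between libraries. Among the alpha genes *itgav* took 24.8, 30 and 34.2% in the 56 hpf libraries, against 26.8, 20.4 and 12.7% in the 48 hpf libraries, out of all alpha counts. *itga5* took 16.3, 13.7 and 11.4% in the 56 hpf libraries, against 16, 21.3 and 28.1% in the 48 hpf libraries. *itgav* had the most counts of the alpha genes in each 56 hpf library. At 48 hpf the gene with the most was *itgav* in replicate 1, *itga3b* in replicate 2 and *itga5* in replicate 3. Among the beta genes *itgb1b* took 15.9, 13.8 and 13% in the 56 hpf libraries, against 21.9, 30.2 and 40.8% in the 48 hpf libraries, out of all beta counts. Its share was smaller in each 56 hpf library than in each 48 hpf library. *itgb3a* took 12.7, 14.4 and 13.3% in the 56 hpf libraries, against 6.89, 5.01 and 5.17% in the 48 hpf libraries, more in each 56 hpf library than in any at 48 hpf. *itgb4* took 22.6, 23.6 and 32% in the 56 hpf libraries, against 19.5, 14.6 and 12.1% in the 48 hpf libraries. Counts of different genes are not corrected for transcript length here, so these shares and orders describe reads, not molecules.

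Genes for matrix proteins that integrins bind were read from a list of 51 rows, of which 50 were tested. None passed the threshold in limma, though 15 were higher and 7 lower at an unadjusted p under 0.05, beside 11.1% and 7.42% of all genes, and edgeR's quasi-likelihood test called 0. By edgeR's likelihood ratio test 10 rose and 2 fell, where 5.79% and 2.58% of all genes did, and the median log2 fold change was 0.094, near that of the integrin genes. *lama3*, a laminin chain of epithelial basement membrane, had 16.2, 18.7 and 16.6 normalized counts in the 56 hpf pools, against 0, 0 and 0 in the 48 hpf pools. It was detected in each 56 hpf pool and in no 48 hpf pool, and a fitted fold change against libraries at 0 is not given. *thbs4b*, a thrombospondin, had 363, 956 and 1074 normalized counts in the 56 hpf pools, against 18.7, 17.8 and 466 in the 48 hpf pools, with replicate 3 at 48 hpf above replicate 1 at 56 hpf. *fn1b*, one of the fibronectin genes and a ligand of the receptors with alpha5 or alphaV, had 85122, 135412 and 166889 normalized counts in the 56 hpf pools, against 36381, 22128 and 16822 in the 48 hpf pools. Every 56 hpf pool lay far above every 48 hpf pool, and the fold change was 2.38 in limma (SE 0.49, adjusted p = 0.0809). Of the 20 alternatives run 8 called *fn1b*. Its adjusted p was 3.22e-05 by edgeR's likelihood ratio test and 0.0957 by the quasi-likelihood test. The study reported a significant rise of *fn1b* over these stages by sequencing, with an edgeR test, and an increase by qPCR. By staining it also described fibronectin protein in the atrioventricular canal at 48 hpf, further enriched by 56 hpf. The other copy *fn1a* differed by -0.061.

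The largest negative fold changes in that list were those of *tnc*, *tnr* and *lama1*. *tnc*, for tenascin-C, had 3003, 2923 and 2789 normalized counts in the 56 hpf pools, against 13933, 8217 and 3331 in the 48 hpf pools. The 3 pools at 56 hpf lay close together and below the widely spread 48 hpf pools, and the fit gave -1.32 (SE 0.36, adjusted p = 0.132). *lama1*, for the laminin alpha1 chain, had 1206, 1030.4 and 862 normalized counts in the 56 hpf pools, against 2601, 1767 and 1635 in the 48 hpf pools, and a fold change of -0.94 (SE 0.18, adjusted p = 0.0735). *tnr* overlapped between stages at -1.06 (SE 0.59).

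Genes for the proteins that bind integrin tails or signal from them came from a list of 41 rows, of which 39 were tested. Of these 1 rose, *flnb*, for the actin crosslinker filamin B, and none fell, where 1.08% of all genes tested were called. The median log2 fold change was -0.029. At an unadjusted p under 0.05 in limma 5 were higher and 2 lower, beside 11.1% and 7.42% of all genes. The 56 hpf pools all lay above the 48 hpf pools for 7 and below them for 4, beside 13.1% and 11.3% of all genes. *flnb* had 135, 437 and 263 normalized counts in the 56 hpf pools, against 12, 17.8 and 60.9 in the 48 hpf pools. Its 56 hpf pools all lay above its 48 hpf pools, and the fold change was 3.34 (SE 0.49, adjusted p = 0.0387) in limma. This call was lost in edgeR's quasi-likelihood test, which called 0 genes of the list. It was also lost without replicate 2 at both stages or at either one, and without replicate 3 at 56 hpf. With at least 10 reads required in every library *flnb* was not tested, since it had 9 reads in replicate 1 at 48 hpf. *pxna*, for paxillin, had 26.4, 21.7 and 15.8 normalized counts in the 56 hpf pools, against 1.33, 5.68 and 12.7 in the 48 hpf pools, and a second row of that name was at the floor. *ptk2bb*, for a kinase related to focal adhesion kinase, had 700.2, 1198 and 1135 normalized counts in the 56 hpf pools, against 628, 445 and 170.1 in the 48 hpf pools, and a fold change of 1.44 (SE 0.44, adjusted p = 0.161).

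Of the adaptors lower at 56 hpf, *lims2*, for a PINCH protein of the complex with integrin-linked kinase, had 199, 266 and 198 normalized counts in the 56 hpf pools, against 288, 498 and 656 in the 48 hpf pools. The stages did not overlap, and the fold change was -1.05 (SE 0.28, adjusted p = 0.123). *fermt3b*, for the kindlin of blood cells, and *flnca*, for the filamin of muscle, overlapped between stages at -0.79 (SE 0.52) and -0.74 (SE 0.39). *tln1*, for talin, was at 0.013 (SE 0.20) and *ilk*, for integrin-linked kinase, at 0.047 (SE 0.20), both with overlap. *ptk2.2*, for focal adhesion kinase, was lower in every 56 hpf pool than in any 48 hpf pool, with a fold change of -0.51 (SE 0.22, adjusted p = 0.273).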

How the data were processed

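RNA was sequenced from 3 pools of dissected zebrafish hearts at 56 hpf and 3 at 48 hpf. By the study's methods, reads were aligned to the Zv9 assembly, uniquely aligned reads were kept and counted on Ensembl genes with HTSeq. The submitters' processing notes name CASAVA 1.8.2, Bowtie2 2.1.0, HTSeq 0.5.4p3 and DESeq 1.10.1, other versions than the methods do. The labels describe amplified cDNA (NuGEN) on a HiSeq instrument and the methods oligo-dT selected mRNA on a Genome Analyzer, and which holds was not settled. Neither states that counting used strand.

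The values the authors deposited are a signal: reads on a gene over a size factor of its library. In each library 100% of values came to whole steps of 1 read, within a tolerance of 0.01, which returned the reads. These were divided by median-of-ratios (RLE) factors drawn from the 6 libraries. The deposited factors were 0.914 to 1.00 times these, and with them the median over all genes tested was 0.11 on the log2 scale in place of -0.011. Genes were kept by filterByExpr of edgeR 4.0.16 (minimum count 10, minimum total 15), which left 20805. The test was limma 3.58.1 with a variance trend on log2(normalized count + 1), blocked on the replicate number, in R 4.3.3. A test adjusted for differences between experiments is described in the methods, and reading the replicate number as the experiment is an inference. The sample titles carry a second code of unknown meaning, shared by replicate 3 at 56 hpf and replicate 1 at 48 hpf, which the block does not follow. Count tests on the recovered reads, edgeR's and DESeq2 1.42.0, were alternatives: the likelihood ratio test called 1741 genes, the quasi-likelihood test 156 and DESeq2 1501, against 225 in limma. The fits were also run on simulated counts without differences between replicate numbers, so that run does not test the block.

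The members and the lists of ligands, adaptors and markers were chosen with earlier results of these data known. Values in every pool are given for members whose stages do not overlap, the 5 largest positive and 5 largest negative fold changes, the 6 highest alpha and 6 highest beta genes, related copies, and members removed by the filter. Of the ligand and adaptor lists, called genes and the 3 largest differences each way are named. *fn1a*, *tln1*, *ilk*, *ptk2.2* and the markers named singly were chosen after their values were seen. Of the 31 symbols 29 matched the RefSeq table of GRCz12tu, used for neighbours only. Transcript lengths and sequences were not used here.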

Additional observations from a re-analysis of the deposited data

How the results depend on the processing

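Of 29 integrin genes, limma with the replicate block called 0. Calls numbered 2 with no replicate block, 7 by edgeR's likelihood ratio test, 8 by DESeq2, 1 on the deposited scale (*itgb3a*) and 1 with pseudocount 10 (*itga10*). With no filter on low counts 1 of 31 was called, and with at least 10 reads in every library 0 of 27. The quasi-likelihood test of edgeR without the block, a setting chosen after seeing the data, called 1. Leaving out replicates gave 0 to 11, the most without replicate 1. All genes called numbered 225 with the block, 560 without it, 1741 by the likelihood ratio test and 1501 by DESeq2. They numbered 285 on the deposited scale, 244 with pseudocount 10 and 516 by the quasi-likelihood test without the block. Each of these settings tested 20805 genes. With no filter 346 of 28940 genes were called, and with at least 10 reads in every library 137 of 16880. With replicates left out the calls numbered 53 to 2271. The share of calls that were higher at 56 hpf was 80.4% in limma and 69.2% by the likelihood ratio test, and lay between 67.1%, without replicate 1, and 98.1%, without replicate 2, over the settings run. Ligand genes called numbered 0 with the block, 5 without it, 12 by the likelihood ratio test, 10 by DESeq2, 1 on the deposited scale, 3 with no filter, 1 with pseudocount 10, 5 by the quasi-likelihood test without the block, and 0 to 12 with replicates left out. Adaptor genes called numbered 1 with the block, 0 by the quasi-likelihood test, 3 by the likelihood ratio test, 3 by DESeq2, and 0 to 7 with replicates left out. With at least 10 reads in every library, which removed *flnb*, 0 of 37 were called. Integrin genes whose stages did not overlap numbered 13, also on the deposited scale, and 12 with TMM size factors of edgeR in place of RLE. With a replicate left out they numbered 17 to 21, since fewer pools overlap less often by construction. The share of all genes with a replicate left out is not given here, so the 17 to 21 cannot be set against it. The median of the integrin genes was positive in every setting run. The cause of the other differences was not tested.

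Deviations of same-numbered pools from their stage means correlated at 0.0289, 0.194 and -0.0541 for replicates 1, 2 and 3. Between pools of different number and stage the correlations were -0.165 to 0.0911. The summed liver and yolk markers were lowest in replicate 2 at both stages, with 19622 at 56 hpf and 7611 at 48 hpf. Whether the replicate numbers pair the pools was thus not settled by these correlations. The number was kept as a block by inference from the methods, which name no replicate numbers.

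Signs turned only for genes near 0. With a replicate or single pool left out, log2 fold changes were -0.019 to 0.46 for *itga9*, -0.10 to 0.34 for *itga11a*, -0.18 to 0.085 for *itgb1a*, -0.19 to 0.090 for *itga8* and -0.18 to 0.21 for *itga7*. On the deposited scale *itgb1a* was 0.11 and *itga8* 0.075, and *itga7* was -0.028 by the quasi-likelihood test without the block. No other of the 29 genes turned sign in the 20 alternatives. Of the lowest genes, a difference is limited by depth.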
